A study of Mus musculus with 4 samples.

Results

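Integrin subunits and adhesion receptors were followed in CD8 T cells that were flow-sorted from mouse hepatocellular carcinoma. The set holds 10 genes, chosen as a list of symbols and read from the deposited count table. All 10 were among the 14934 genes of the table, and all 10 were among the 11563 genes tested. They are the integrin chains Itgal, Itgb2, Itga4, Itgb1, Itgb7, Itgae, Itga1 and Itgax, with the adhesion receptor Cd44 and the selectin ligand Selplg. Both groups came from mice of wild-type genotype (WT in the labels), with no treatment recorded. JAML-positive cells (JAML+) carry the junctional adhesion molecule-like protein at the surface, and JAML-negative cells (JAML-) do not. Each group has 2 libraries, called replicates A and B. The mouse strain, the age of the mice, the way tumours were raised and whether A and B were separate mice are not stated in the labels. P-values therefore measure only how far these libraries spread, which may be technical.

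Integrins are heterodimers of an alpha and a beta chain that hold T cells to other cells and to the matrix. LFA-1 (Itgal with Itgb2) binds ICAM-1 and serves the contact between a T cell and its target. VLA-4 (Itga4 with Itgb1) binds VCAM-1 and fibronectin, and Itga4 with Itgb7 forms the gut-homing receptor for MAdCAM-1. CD103 (Itgae with Itgb7) binds E-cadherin on epithelial cells, CD49a (Itga1 with Itgb1) binds collagen, and both are used as markers of tissue-resident CD8 T cells. CD11c (Itgax with Itgb2) is best known as a dendritic cell marker and is also found on some activated CD8 T cells. CD44 binds hyaluronan, and PSGL-1, the product of Selplg, is the ligand of P-selectin on leukocytes.

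Of the 10 genes, 6 have a promoter window in the RefSeq-based sequence table on GRCm38.p6 (Itga4, Itgb1, Itgb7, Itga1, Itgax and Cd44). The 3 printed here belong to the genes with the largest fold differences between the groups, Itgax, Itga1 and Itga4. Each is the run of 250 bases just before the start the table uses, 5′ to 3′ on the gene's strand, and for Itgax that start lies shortly after the gene's first annotated base at 128129526. Capitals mark letters that match, on either strand, the ETS core GGAAG, the RUNX core TGNGGT or the GC box GGGCGG. ETS and RUNX proteins are transcription factors of blood cells, and the GC box is the letter pattern bound by SP1.
Itgax, chr7:128129300-128129549, plus strand: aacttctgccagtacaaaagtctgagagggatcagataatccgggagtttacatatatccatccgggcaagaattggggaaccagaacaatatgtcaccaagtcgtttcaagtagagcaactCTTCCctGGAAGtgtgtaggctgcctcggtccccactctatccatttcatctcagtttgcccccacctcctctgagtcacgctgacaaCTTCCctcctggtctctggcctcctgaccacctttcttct
Itga1, chr13:115101965-115102214, minus strand: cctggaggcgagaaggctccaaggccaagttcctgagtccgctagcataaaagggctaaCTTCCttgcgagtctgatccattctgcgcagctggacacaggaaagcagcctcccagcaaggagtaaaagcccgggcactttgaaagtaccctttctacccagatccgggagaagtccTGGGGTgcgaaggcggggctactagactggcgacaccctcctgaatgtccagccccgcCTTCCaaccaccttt
Itga4, chr2:79255176-79255425, plus strand: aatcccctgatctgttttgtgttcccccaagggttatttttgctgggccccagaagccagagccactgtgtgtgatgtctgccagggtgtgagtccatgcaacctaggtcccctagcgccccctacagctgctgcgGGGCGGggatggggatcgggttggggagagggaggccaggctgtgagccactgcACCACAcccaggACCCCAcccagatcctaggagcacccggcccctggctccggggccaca
The Itgax window held 3 matches to GGAAG, 0 to TGNGGT and 0 to GGGCGG. The Itga1 window held 2 to GGAAG, 1 to TGNGGT and 0 to GGGCGG. The Itga4 window held 0 to GGAAG, 2 to TGNGGT and 1 to GGGCGG. No marked motifs overlap in these windows. Among all 32851 windows of this length in the table, GGAAG was found in 64.1%, TGNGGT in 40.1% and GGGCGG in 32.7%. The letters TATAAA, found in 12.4% of all windows, occur in 0 of the 6. GC content was 50.0% for Itgax, 57.6% for Itga1 and 64.0% for Itga4. A match is a run of letters and not a shown binding site.

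The libraries held 27530187 to 30569728 counts each, so 1 count is worth 0.0327 to 0.0363 counts in 1000000 (CPM). Jaml itself was at 131 and 117 CPM in JAML- and 138 and 147 CPM in JAML+ replicates A and B (log2 fold change 0.20, SE 0.27, edgeR adjusted p = 0.881). Its messenger RNA therefore gives no clear check of the labels, and every direction below rests on them. T cell markers were abundant in all 4 libraries, with Cd8a at 1069 ± 63.3 CPM in JAML- and 1048 ± 5.48 CPM in JAML+ cells (SD, n = 2). JAML+ replicate A stood apart, with 12.53% of its counts in ribosomal protein genes against 7.71% to 8.62% in the other 3 libraries. Values without that library stand beside the results that depend on it most. In bulk libraries, fewer cells of a type and less RNA per cell cannot be told apart.

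None of the 10 genes passed the test between the groups, while edgeR's adjusted p under 0.05 was met by 0% of the 11563 genes tested. The adjusted p of the 10 ran from 0.609 to 0.989. An unadjusted p under 0.05 was found for 1 of the 10, Itgax, where 7.65% of all genes tested had one (885 genes), 4.32% with a higher and 3.34% with a lower value in JAML+ cells. DESeq2 placed Itgax past the threshold (adjusted p = 0.00469), as it did 6.77% of the genes it tested, and limma-voom placed none of the 10 past it. Values were higher in JAML+ cells for 4 genes and lower for 6, and 49.3% of all genes tested had lower values. The median log2 fold change of the 10 was -0.08, against 0.01 over all genes tested. The groups did not overlap in CPM for 5 of the 10 (Itgax, Itga4 and Selplg lower in JAML+ cells, Itga1 and Cd44 higher), where 38.5% of all genes tested did not overlap. The share of the 10 is near that background.

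**Figure D1:**
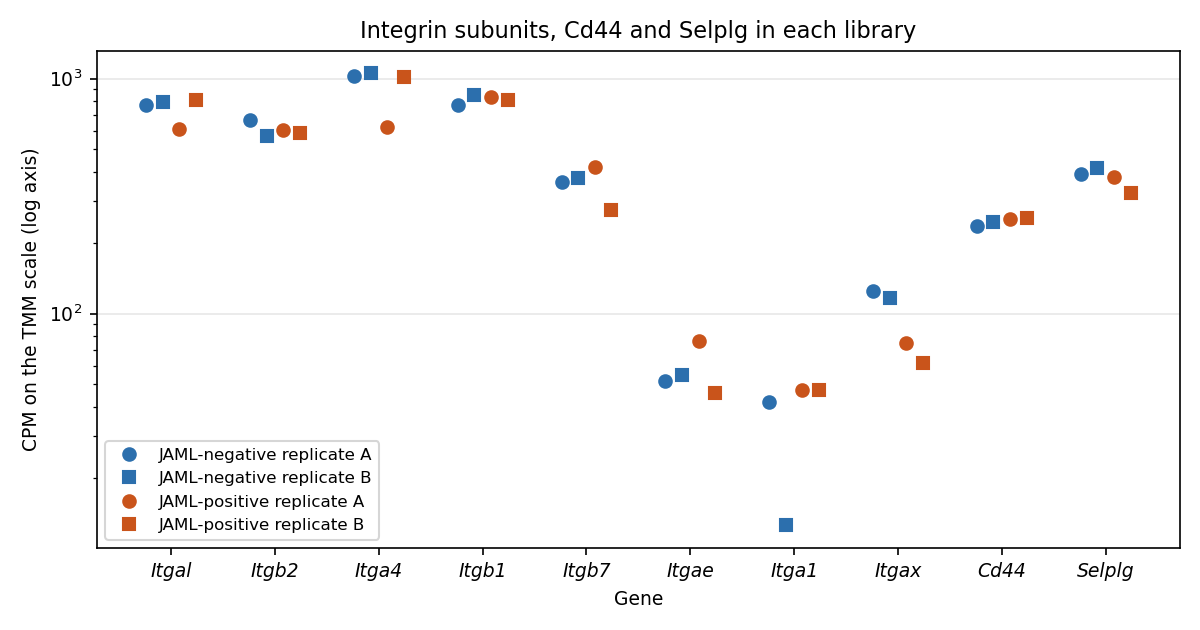
Level of each of the 10 genes in each of the 4 libraries, in CPM on the TMM scale with a log axis. Circles are replicate A, squares replicate B, blue JAML- and orange JAML+. Most genes sit within a narrow band, Itgax is lower in both JAML+ libraries, and Itga1 is low in JAML- replicate B alone.

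Neither chain of LFA-1 differed between the groups by more than its libraries spread. Itgal (Entrez 16408, chromosome 7, 127296139 to 127335137, GRCm38) was at 775 and 799 CPM in JAML- replicates A and B, and at 610 and 814 CPM in JAML+ replicates A and B. The groups overlapped, and JAML+ replicate A was the low library. Between the groups the log2 difference was -0.14 (SE 0.21, edgeR adjusted p = 0.893), and 0.05 without JAML+ replicate A. Itgb2 (Entrez 16414, chromosome 10, 77530329 to 77565708), the beta chain shared by LFA-1 and CD11c, was at 668 and 570 CPM in JAML- and 603 and 590 CPM in JAML+ cells. Both JAML+ values lay between the JAML- ones. The fold for Itgb2 was 0.963, with a 95% interval of 0.711 to 1.30. The interval for Itgal was 0.660-fold to 1.24-fold.

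Itga4, the alpha chain of VLA-4, was low in 1 of the 4 libraries. Itga4 (Entrez 16401, chromosome 2, 79255426 to 79333114) was at 1024 and 1053 CPM in JAML- replicates A and B, and at 623 and 1011 CPM in JAML+ replicates A and B. The groups did not overlap, but JAML+ replicate B lay just under the JAML- pair. On the log2 scale JAML+ cells differed by -0.34 (SE 0.23, edgeR adjusted p = 0.718). It was -0.04 without JAML+ replicate A and -0.74 without JAML+ replicate B (adjusted p = 0.0941). Correcting for transcript length and GC content gave -0.14, so its size depends on the library and the correction used. Exons of Itga4 overlap those of Cerkl on the opposite strand over 8.04% of the exonic bases of Itga4, and Cerkl had 4 to 212 counts a library against 16476 to 31612 for Itga4.

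Itgb1 (Entrez 16412, chromosome 8, 128685654 to 128733579), the beta chain of VLA-4 and CD49a, was at 773 and 852 CPM in JAML- and 837 and 808 CPM in JAML+ cells. These 4 values interleave. The fold was 1.01, with a 95% interval of 0.757 to 1.35, and the log2 difference was 0.02, or -0.0053 without JAML+ replicate A. Itgb7 (Entrez 16421, chromosome 15, 102215994 to 102233405), the partner of Itga4 and Itgae, was at 362 and 379 CPM in JAML- replicates A and B and at 420 and 275 CPM in JAML+ replicates A and B. The JAML+ libraries lay on either side of the JAML- pair. The log2 fold change of Itgb7 was -0.10 (SE 0.24, edgeR adjusted p = 0.949), -0.42 without JAML+ replicate A and 0.18 without JAML+ replicate B.

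Among the residency integrins, Itgae differed most within the JAML+ group and Itga1 within the JAML- group. Itgae (Entrez 16407, chromosome 11, 73090505 to 73147449), the alpha chain of CD103, was at 51.8 and 54.7 CPM in JAML- replicates A and B, and at 76.5 and 46.1 CPM in JAML+ replicates A and B. As for Itgb7, the JAML+ libraries bracketed the JAML- ones, with replicate A high and replicate B low. edgeR put the log2 fold change of Itgae at 0.19 with an SE of 0.40 (adjusted p = 0.935), and at -0.20 without JAML+ replicate A. The 95% interval ran from 0.624-fold to 2.08-fold. Haspin lies inside the span of Itgae on the opposite strand, and the exons of the pair share 0 bases.

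Itga1 (Entrez 109700, chromosome 13, 114958079 to 115101964), the collagen-binding alpha chain of CD49a, was at 42.0 and 12.6 CPM in JAML- replicates A and B, and at 47.5 and 47.3 CPM in JAML+ replicates A and B. JAML- replicate B was low, with 346 counts against 1187 to 1479 in the other 3 libraries, which lay close together. Over all 4 libraries its log2 fold change came to 0.79 (SE 0.54, edgeR adjusted p = 0.721). It was 1.91 without JAML- replicate A and 0.18 without JAML- replicate B. The 95% interval ran from 0.763-fold to 3.91-fold. Pelo lies on the same strand inside Itga1, and their exons share 0 bases, while the gene model Gm49395, not in the count table, shares 3.68% of the exonic bases of Itga1.

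Itga1 is also made by stromal cells, so markers of liver and stroma are given beside it. Of the 9 markers, all in the table, 6 were tested, 5 with higher and 1 with lower values in JAML+ cells. That balance turned on single libraries, with 2 higher and 4 lower without JAML- replicate B and 3 each way without JAML+ replicate B. Their summed level was 157 to 163 CPM in JAML- and 129 to 167 CPM in JAML+ libraries, most of it from Pecam1, which T cells also express. The hepatocyte gene Ttr had 0 or 1 counts in every library. JAML- replicate B, low in Itga1, had the lowest counts of Alb (115 against 384 to 541) and of Col1a1, a fibroblast collagen (1 against 203 to 259). It also had the highest count of Pecam1 (4010). The epithelial gene Epcam had 186 counts in JAML- replicate B and 233 in JAML+ replicate B, against 0 in both replicate A libraries. Col3a1, another collagen gene of the list, had 6 counts in JAML- replicate B and 8 in JAML+ replicate B, against 98 and 163 in JAML- and JAML+ replicate A. Cdh5 of the list had 11 and 6 counts in JAML- and 7 and 307 in JAML+ replicates A and B. These genes were singled out by library after their values were seen, and the part of such cells in the Itga1 values was not tested.

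**Figure D2:**
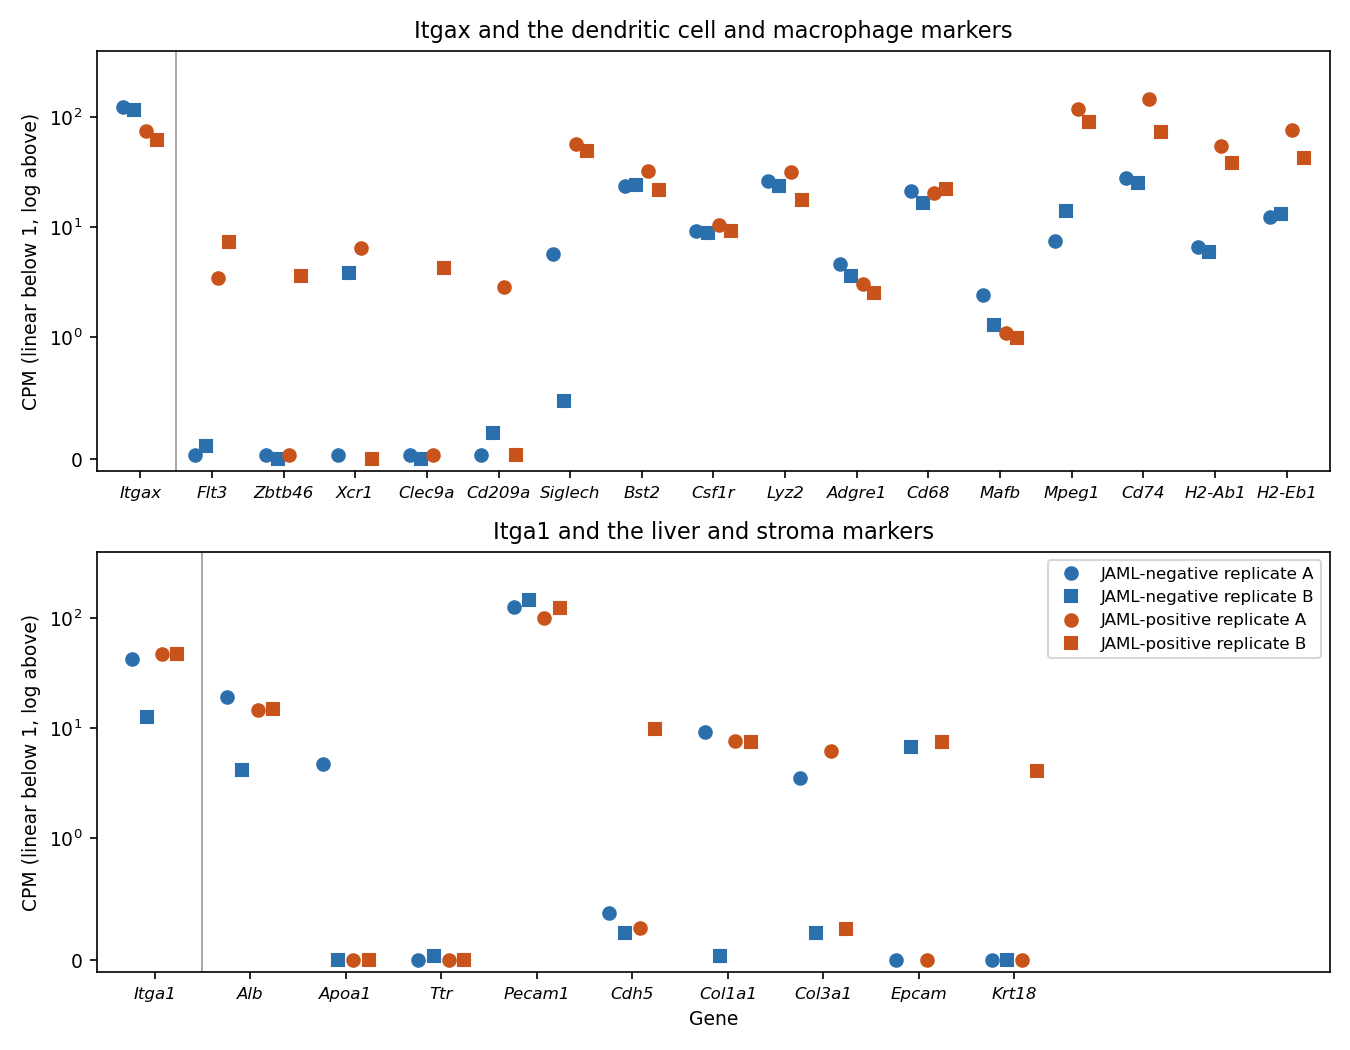
CPM in each library (linear below 1, log above) of Itgax with the 16 dendritic cell and macrophage markers, above, and of Itga1 with the 9 liver and stroma markers, below. Colours and symbols mark group and replicate. Itgax is lower in the JAML+ libraries while Siglech, Mpeg1, Cd74, H2-Ab1 and H2-Eb1 are higher there, and JAML- replicate B is low in Itga1, Alb and Col1a1 but not in Pecam1 or Epcam.

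Itgax had the smallest p of the 10 genes. Itgax (Entrez 16411, chromosome 7, 128129526 to 128150657), the alpha chain of CD11c, was at 124 and 116 CPM in JAML- replicates A and B, and at 75.1 and 61.4 CPM in JAML+ replicates A and B. Both JAML+ libraries lay below both JAML- ones. Its log2 fold change was -0.82 (SE 0.31, unadjusted p = 0.0203, adjusted p = 0.609, edgeR), a fold of 0.566 with a 95% interval of 0.355 to 0.900. With any 1 library left out it was between -0.97 and -0.68. In order of p, Itgax was 294 of the 11563 genes tested. Its adjusted p ran from 0.606 to 0.881 over the edgeR and limma alternatives, with the value lower in JAML+ cells in each, and of the tools run DESeq2 alone called it.

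Dendritic cells and macrophages also make Itgax, and most of their markers had values in the other direction. The 16 markers are all in the table, and 13 were tested, 10 with higher and 3 with lower values in JAML+ cells. Their summed level was 147 and 141 CPM in JAML- and 563 and 381 CPM in JAML+ replicates A and B. Flt3, Zbtb46 and Clec9a, which define dendritic cells, had 0 to 3 counts each in the JAML- libraries and 113 to 230 counts each in JAML+ replicate B. In JAML+ replicate A, Flt3 had 90 counts and Zbtb46 and Clec9a 1 each. Xcr1, of cross-presenting dendritic cells, had 1 and 105 counts in JAML- and 170 and 0 in JAML+ replicates A and B, so these markers varied from library to library. Siglech, of plasmacytoid dendritic cells, had 161 and 13 counts in JAML- and 1491 and 1527 in JAML+ replicates A and B. Mpeg1 and Cd74, of phagocytes and antigen-presenting cells, were at 10.7 ± 4.50 and 26.4 ± 1.83 CPM in JAML-, and at 104 ± 20.8 and 109 ± 51.2 CPM in JAML+ cells. None of the 16 passed edgeR's test over all genes, and 5 had an unadjusted p under 0.05, all with higher values in JAML+ cells (4.32% of all genes tested). With no filter on low counts edgeR called Mpeg1, and DESeq2 called Cd74, Flt3, H2-Ab1, H2-Eb1 and Mpeg1. The part of these cells in the Itgax values was not tested.

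Neither Cd44 nor Selplg passed the test. Cd44 (Entrez 12505, chromosome 2, 102811141 to 102901669), the hyaluronan receptor of antigen-experienced T cells, was at 235 and 245 CPM in JAML- and 252 and 255 CPM in JAML+ cells. The groups did not overlap, but the fold was 1.06, with a 95% interval of 0.757 to 1.47 (edgeR adjusted p = 0.954). Selplg (Entrez 20345, chromosome 5, 113817798 to 113832528) was at 392 and 415 CPM in JAML- and 382 and 325 CPM in JAML+ cells. The JAML+ values were the lower ones, with replicate A close to the JAML- pair. The log2 fold change of Selplg was -0.19 (SE 0.21, edgeR adjusted p = 0.851), with an interval of 0.636-fold to 1.20-fold. It was -0.31 without JAML+ replicate A, -0.09 without JAML+ replicate B and -0.37 after correction for transcript length and GC content, under which Cd44 was at 0.18 in place of 0.08.

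Itgb7, Itgb1, Itga4, Cd44 and Selplg are made by B cells, natural killer cells and CD4 T cells too. The 7 B and plasma cell markers summed to 10.5 and 18.1 CPM in JAML- and 126 and 84.9 CPM in JAML+ replicates A and B. Jchain gave most of the sum in the JAML+ libraries (98.5 and 51.0 CPM) and Cd79b in the JAML- ones (5.84 and 17.65 CPM), and Cd79a and Pax5 had 0 to 4 counts a library. Mzb1 had 0 and 0 counts in JAML- and 188 and 344 in JAML+ replicates A and B, and Ms4a1 1 and 0 against 304 and 102. Of the 7, 4 were tested, all with higher values in JAML+ cells. In edgeR 3 had an unadjusted p under 0.05 (4.32% of all genes tested) and none passed over all genes. DESeq2 called Jchain, Ms4a1 and Mzb1. The 7 natural killer and innate-like markers summed to 449 and 535 CPM against 483 and 428 CPM. The 4 CD4 and regulatory T cell markers summed to 230 and 210 CPM against 199 and 265 CPM. They moved both ways, 3 with higher and 1 with lower values in JAML+ cells. Cd40lg had 1 and 70 counts in JAML- and 356 and 1048 in JAML+ replicates A and B. Ikzf2 was at 104 and 83.0 CPM against 41.8 and 58.6 CPM. Both had an edgeR adjusted p of 0.609, and DESeq2 called both. The neutrophil genes S100a8 and Elane had 0 or 1 counts in every library, while Ly6c2 and Ccr2 of that list, which CD8 T cells also make, were at 544 ± 115 and 257 ± 26.8 CPM in JAML- cells. The part of these cell types in the adhesion genes was not tested.

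**Figure D3:**
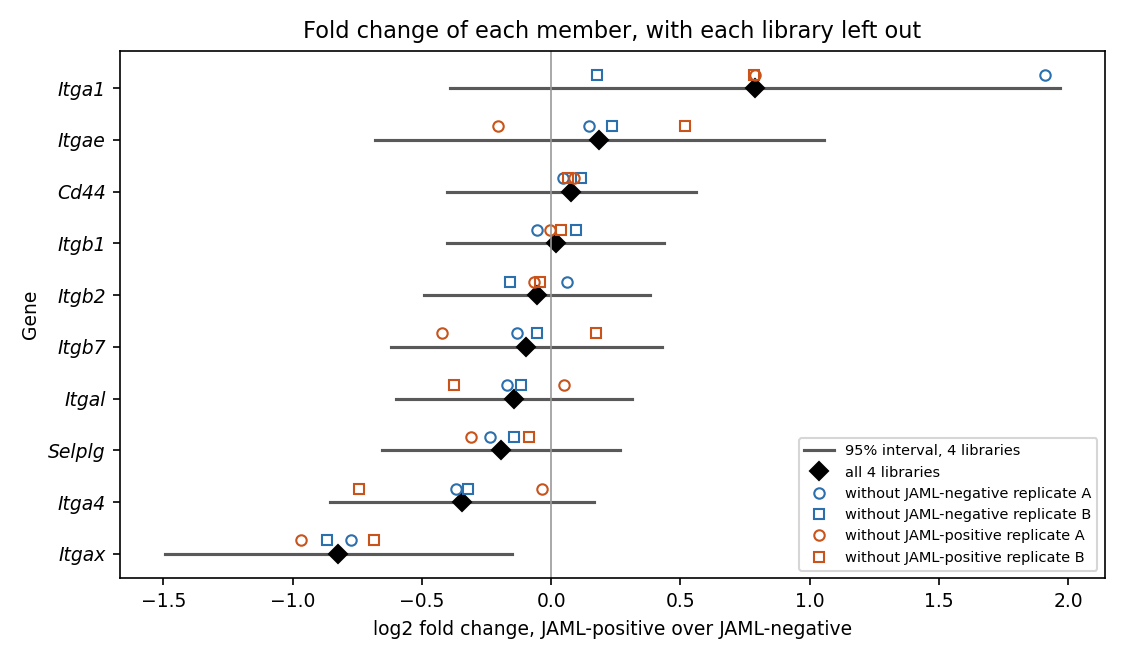
Log2 fold change of each gene, JAML+ over JAML-, from edgeR. Diamonds with lines are values and 95% intervals over 4 libraries, and open symbols are values with 1 library left out. The interval of Itgax alone lies below 0, and Itga1, Itga4, Itgae and Itgb7 move most when a library is removed.

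The 2 JAML+ libraries differed from each other most for 4 of the 10 genes, and for these by more than the groups did. The ratio of replicate A to replicate B in JAML+ cells was 0.617 for Itga4, 0.749 for Itgal, 1.52 for Itgb7 and 1.66 for Itgae. In JAML- cells the same ratios were 0.973, 0.970, 0.956 and 0.947. The alpha chains Itga4 and Itgal were thus low, and both chains of CD103, Itgae and Itgb7, high, in the JAML+ library with the largest ribosomal protein share. The part of that library's composition in these values was not tested.

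Levels were compared between genes as CPM per kilobase of the longest GENCODE transcript. The beta chains Itgb1 (203 to 223 CPM per kilobase over the 4 libraries) and Itgb2 (192 to 225) came first and overlapped. Selplg (141 to 180), Itgal (117 to 156), Itgb7 (103 to 156) and Itga4 (63.8 to 108) followed, each overlapping the next. Cd44 (41.9 to 45.4) lay apart from its neighbours on both sides. Itgax (15.2 to 30.8) and Itgae (12.0 to 19.9) overlapped, and Itga1 (1.15 to 4.33) was the lowest. The order rests on 1 transcript a gene, from 2314 bases for Selplg to 10967 for Itga1.

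Ratios of alpha to beta chain counts per kilobase do not depend on how libraries are scaled. With 2 libraries a group, the exact two-sided permutation test cannot give a p below 0.333, so no ratio could pass. Itgax to Itgb2 was 0.137 and 0.149 in JAML- and 0.0915 and 0.0765 in JAML+ replicates A and B. The groups did not overlap, and the log2 ratio was lower by 0.77 in JAML+ cells (-2.81 ± 0.09 against -3.58 ± 0.18, SD, n = 2, exact permutation p = 0.333). Itgae to Itgb7 was 0.0999 and 0.101 in JAML- and 0.127 and 0.117 in JAML+ replicates A and B. These groups did not overlap either, and the log2 ratio was 0.28 higher in JAML+ cells (-3.32 ± 0.0095 against -3.04 ± 0.09, SD, n = 2, exact permutation p = 0.333). The ratio was thus closer between the JAML+ libraries than Itgae or Itgb7 was alone.

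The other 4 ratios overlapped between the groups or turned on 1 library. Itgal to Itgb2 was 0.660 and 0.797 in JAML- and 0.575 and 0.785 in JAML+ cells, and overlapped. Itga4 to Itgb1 was 0.518 and 0.483 against 0.291 and 0.489, and Itga4 to Itgb7 was 0.778 and 0.764 against 0.408 and 1.01. In both, JAML+ replicate A gave the low value. Itga1 to Itgb1 was 0.0189 and 0.00513 against 0.0197 and 0.0204, with JAML- replicate B alone low. Exact permutation p for these 4 ratios was 0.667, 0.667, 1.0 and 0.333.

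**Figure D4:**
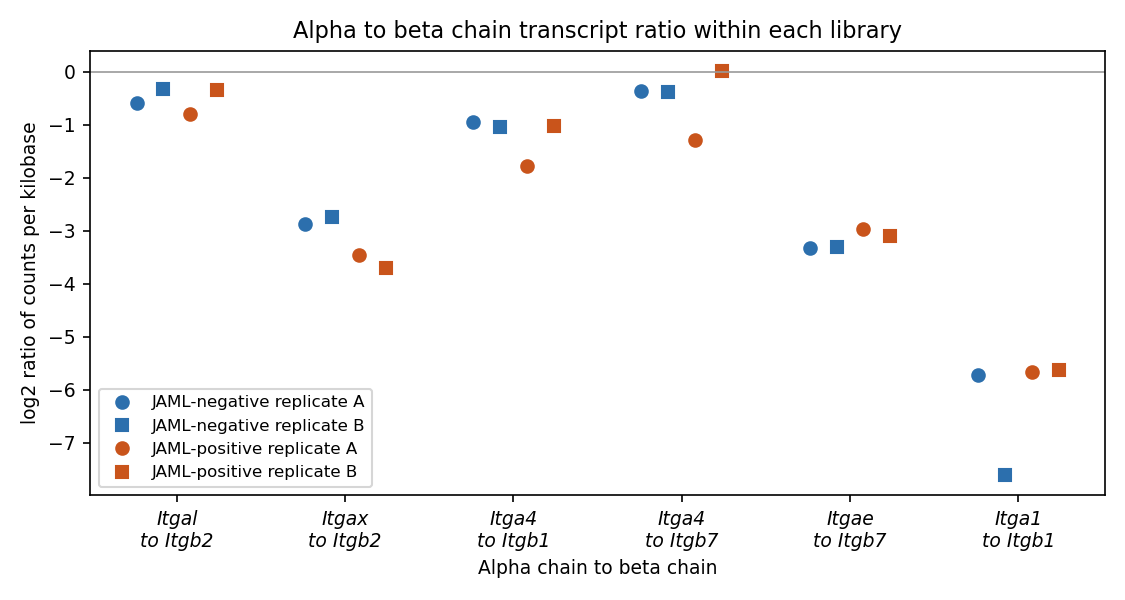
Log2 ratio of alpha to beta chain counts per kilobase for 6 heterodimers in each library. Itgax to Itgb2 is lower and Itgae to Itgb7 higher in both JAML+ libraries, and Itga4 ratios are low in JAML+ replicate A.

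Of 18 other integrin subunits, 15 were in the table and 13 were tested, 5 with higher and 8 with lower values in JAML+ cells. None passed edgeR's test over all genes, and DESeq2 called Itga10 and Itgb3. The median log2 fold change was -0.46, but -0.96 without JAML+ replicate B, -0.28 without JAML+ replicate A, -0.27 without JAML- replicate B and -0.14 in limma-voom. With all libraries that median was the value of Itga5, which had 232 and 5 counts in JAML- and 1 and 178 in JAML+ replicates A and B. The median SE of the 13 was 1.37, and 7 of them reached 10 CPM in a group. The groups did not overlap for 2 higher and 4 lower subunits (20.3% and 18.2% of all genes tested). Itgb3, the beta chain of the vitronectin receptor with Itgav, was at 52.0 and 44.1 CPM in JAML- and 87.1 and 88.1 CPM in JAML+ cells. Both JAML+ values were higher (log2 fold change 0.87, SE 0.35, edgeR adjusted p = 0.609). Itga10, a collagen-binding alpha chain, had 276 and 359 counts in JAML- and 0 and 0 in JAML+ cells, at least 109-fold lower against 3 counts per library. Counting error alone is covered by that bound, and not the spread between libraries. Within the JAML- group, Itga3 had 770 and 0 counts and Itga2b 0 and 176 in replicates A and B. Itga10 had an edgeR adjusted p of 0.609.

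Itgad, the alpha chain of CD11d, had 188 and 553 counts in JAML- and 0 and 89 in JAML+ replicates A and B (log2 fold change -3.11, SE 1.40, edgeR adjusted p = 0.609). It lies next to Itgax on chromosome 7 (128173933 to 128205504), and Itgam, the alpha chain of the macrophage integrin Mac-1, lies on the other side (128062640 to 128118491). Itgam had 69 and 351 counts in JAML- and 52 and 153 in JAML+ cells, and its groups overlapped. Itgal lies in the same region and overlapped too. The sequences of Itgad, Itgam and Itgax are related, so reads shared between them are uncertain, and 68.67% of the exonic bases of Itgam also belong to the gene model Gm49368, which is not in the count table.

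Integrins are switched on from inside the cell by talin, kindlin-3 and the small GTPase RAP1, and are tied to actin by adaptor proteins. Of 32 genes of that machinery, 29 were tested, 10 with higher and 19 with lower values in JAML+ cells, and none passed over all genes. The median log2 fold change was -0.19, against 0.01 over all genes tested, and -0.10 without JAML+ replicate A, when 19 of 29 were again lower. The groups did not overlap for 12 genes lower and 4 higher in JAML+ cells, where 18.2% and 20.3% of all genes tested did so. Rasgrp2, the exchange factor that loads RAP1, was at 216 and 197 CPM in JAML- and 102 and 152 CPM in JAML+ cells. On the log2 scale JAML+ cells differed by -0.69 for Rasgrp2, with an SE of 0.27 (adjusted p = 0.609, edgeR).

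The kinase gene Ptk2b, whose product PYK2 acts below integrins, was at 340 and 325 CPM in JAML- and 216 and 239 CPM in JAML+ cells (log2 fold change -0.55, SE 0.22). Skap2, an adaptor, was at 13.7 and 13.5 CPM against 32.9 and 55.5 CPM (1.72, SE 0.58). Vcl, which encodes vinculin of the actin link, was at 6.23 and 9.04 CPM against 21.3 and 27.2 CPM (1.68, SE 0.75). For these 3 genes the groups did not overlap, and the edgeR adjusted p was 0.609 for each. DESeq2 called Ptk2b, Skap2 and Vcl of the list. Skap2 is widely made in myeloid cells. The summed dendritic cell and macrophage markers were at 147 and 141 CPM in JAML- and 563 and 381 CPM in JAML+ replicates A and B. Within the JAML+ pair, replicate B had more Skap2 and the smaller sum, but single markers went either way. Flt3 had 90 and 230 counts and Mpeg1 3145 and 2802 in JAML+ replicates A and B. Their part in the Skap2 values was not tested.

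Among 14 ligands and counter-receptors of integrins, 11 were in the table and 9 were tested, 5 with higher and 4 with lower values, and none passed or had an unadjusted p under 0.05. Cdh1, which encodes E-cadherin, the ligand of CD103, was at 24.8 and 16.4 CPM in JAML- and 7.57 and 6.01 CPM in JAML+ cells. Both JAML+ values were the lower ones (log2 fold change -1.62, SE 0.81, edgeR adjusted p = 0.609). Fn1, which encodes fibronectin, was at 3.82 and 9.33 CPM against 10.2 and 16.2 CPM (1.03, SE 0.94, edgeR adjusted p = 0.808).

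Selectins and the enzymes that build selectin ligands on PSGL-1 numbered 15, of which 11 were tested, 5 with higher and 6 with lower values, and none passed or had an unadjusted p under 0.05. St3gal4, a sialyltransferase, was at 78.3 and 77.1 CPM in JAML- and 57.3 and 44.1 CPM in JAML+ cells (log2 fold change -0.63, SE 0.36, edgeR adjusted p = 0.642). C1galt1, which starts core 1 O-glycans, was at 62.8 and 62.5 CPM against 38.3 and 51.5 CPM (-0.47, SE 0.39, edgeR adjusted p = 0.783). For both genes the JAML+ values were the lower ones. Fut7, the fucosyltransferase that completes selectin ligands in leukocytes, had 0 counts in 3 libraries and 93 in JAML+ replicate B.

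Partners of CD44 and genes of hyaluronan metabolism numbered 13, of which 9 were tested, 5 with higher and 4 with lower values. None passed edgeR's test, and DESeq2 called Hmmr alone. Hmmr, which encodes a hyaluronan receptor that also acts at the mitotic spindle, was at 39.5 and 34.3 CPM in JAML- and 81.6 and 72.5 CPM in JAML+ cells. Both JAML+ values were higher (log2 fold change 1.06, SE 0.38, edgeR adjusted p = 0.609). Among the linkers of CD44 to actin, Msn was at 1381 ± 45.7 CPM in JAML- and 1254 ± 99.3 CPM in JAML+ cells, and Ezr at 505 ± 59.6 and 594 ± 28.4 CPM (SD, n = 2).

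**Figure D5:**
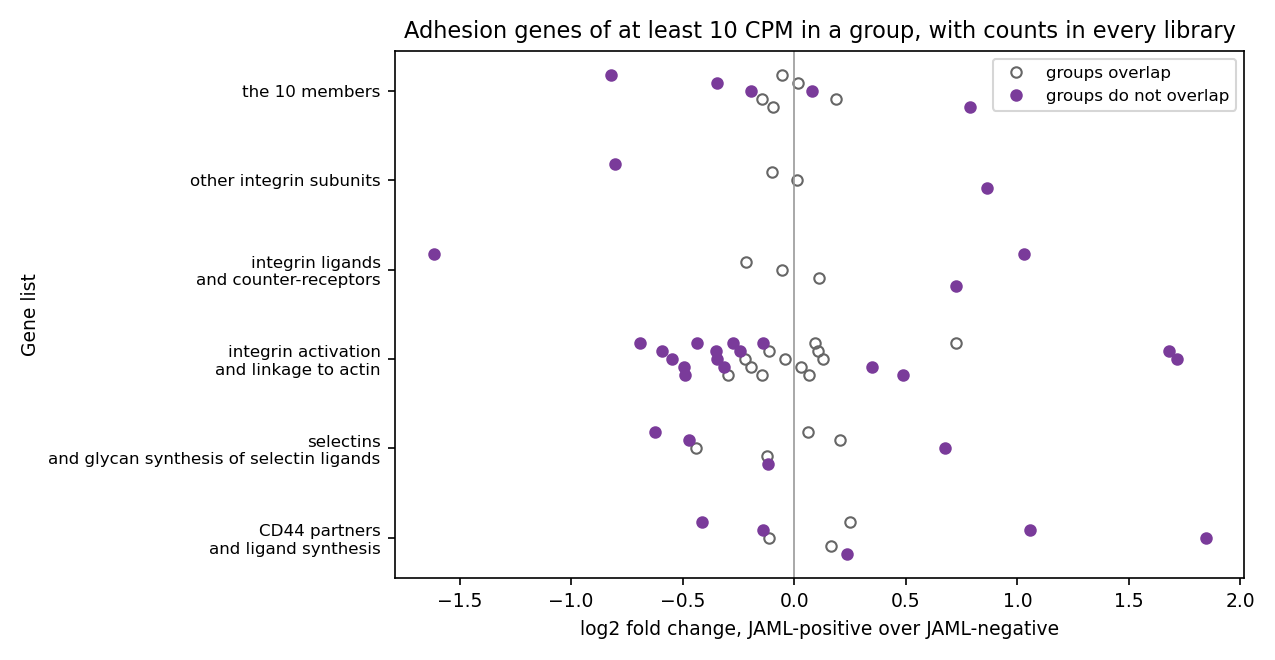
Log2 fold change, JAML+ over JAML-, of the 10 genes and of the adhesion lists, limited to genes that reach 10 CPM in either group and have counts in every library. Filled points are genes whose groups do not overlap. Genes of integrin activation lie mostly below 0, with Skap2 and Vcl far above it.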

How the data were processed

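RNA from 4 sorted CD8 T cell libraries, 2 per group, was made into libraries with a SMARTER mRNA-Seq kit, per the labels' protocols. The authors deposited raw counts per gene, as whole numbers with no further normalization. The submitters' processing notes name GRCm38 (mm10) as the genome. Aligner, counting program, strand setting and gene annotation: not given in the sources used here.

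Genes were kept by filterByExpr (minimum count 10) and tested with edgeR 4.0.16 in R 4.3.3. TMM factors, robust dispersions and the quasi-likelihood test with no covariate were used over all genes, with Benjamini-Hochberg adjustment and a threshold of 0.05. SE, the standard error of a log2 fold change, comes from that change and its F statistic. Levels are CPM on the TMM scale. A floor of 3 counts was used for genes at 0, and floors cover counting error only. Scripts were tested on simulated data. Alternatives used DESeq2 1.42.0, its size factors in edgeR, limma-voom (limma 3.58.1), no filter, a replicate block and each library left out. Removal of length and GC trends and the earlier (legacy) edgeR quasi-likelihood test were added after the data were seen. The legacy test was run first. The bias-adjusted test was then made the main one, to follow earlier processing of these data, with both outputs known, and none of the 10 genes passed either. The length and GC correction was centred per library after an uncentred version had shifted the median of all genes.

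Positions are RefSeq, by Entrez identifier, and transcript lengths and exon overlaps are GENCODE vM21, all on GRCm38. The members and lists were chosen with earlier results of these data known. Beside the members and Jaml, named genes of each adhesion list have an unadjusted p under 0.05 and at least 10 CPM in a group. At most 4 are named a list, or the 2 with the smallest p where none had such a p. From the cell type lists they are some of the highest-CPM markers, not all of which are named. Of these, Alb, Col1a1 and Pecam1 were singled out by library after their values were seen. Others named (Itgam, Itga2b, Itga3, Itga5, Fut7, Msn, Ezr, Flt3, Zbtb46, Clec9a, Siglech, Xcr1, Epcam, Col3a1, Ttr, Ms4a1 and genes overlapping or sharing a marker list) were chosen after their values were seen.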

Additional observations from a re-analysis of the deposited data

How the results depend on the processing

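Under 11 alternatives each, 110 values of the 10 genes were computed, and 103 kept their direction and their side of the threshold. DESeq2 placed Itgax past it (log2 fold change -0.83, adjusted p = 0.00469). The 6 reversals all came from leaving out 1 library. Itgal ranged from -0.37 to 0.052 (reversed without JAML-positive replicate A), Itgae from -0.20 (without JAML-positive replicate A) to 0.52, and Itgb7 from -0.42 to 0.18 (without JAML-positive replicate B). Itgb2 ranged from -0.16 to 0.060 (without JAML-negative replicate A), and Itgb1 from -0.056 to 0.095, where the lowest value left out JAML-negative replicate A and a value of -0.0053 left out JAML-positive replicate A. With length and GC trends removed, chosen after seeing the data, Itga4 was at -0.14, Itgal at -0.019, Selplg at -0.37 and Cd44 at 0.18. Over all genes, edgeR called 0 genes, 2 with no filter on low counts (Mpeg1 and Jchain) and 0 to 11 with a library left out, the 11 without JAML-positive replicate B, while DESeq2 called 835; the cause was not tested. With the replicate block edgeR called 0 genes, 620 had an unadjusted p under 0.05 against 885, and Itgax had a log2 fold change of -0.82 (adjusted p = 0.854). The labels do not say that the letters pair libraries, so the block was kept as an alternative. Deviations of same-lettered libraries from their group means correlated at 0.0176 across genes. With 2 libraries a group that value is the same for both letters by construction. It cannot show whether a mouse or day was shared.

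With a library left out, differences in log2 ratio (JAML-positive minus JAML-negative) ranged from -0.33 to 0.11 for Itgal to Itgb2, from -0.90 to -0.64 for Itgax to Itgb2 and from -0.78 to -0.03 for Itga4 to Itgb1. They ranged from -0.92 to 0.39 for Itga4 to Itgb7, from 0.22 to 0.34 for Itgae to Itgb7 and from 0.08 to 1.97 for Itga1 to Itgb1. The reversed values were 0.03 (without JAML-negative replicate B) and 0.11 (without JAML-positive replicate A) for Itgal to Itgb2, and 0.39 (without JAML-positive replicate A) for Itga4 to Itgb7. The median log2 fold change over all genes tested was 0.13 without either JAML-negative library, against 0.01 with all 4. The median SE of the 10 genes was 0.23, against 0.56 over all genes tested.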
